A study of Mus musculus with 24 samples.

Results

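Chromatin accessibility was described here at 9 genes of primed pluripotency and of the Nodal pathway: Fgf5, Otx2, Pou3f1, Sox3, Nodal, Lefty1, Lefty2, Tdgf1 and Smad7. They were chosen by name from the 55413 genes of the GENCODE vM21 annotation, of which 21938 are protein-coding. A start was an annotated transcript start of the gene, and a locus was the gene body with 50 kb on either side. The 9 loci held 231 of 233706 windows, a window being 501 bp around a peak summit that at least 2 libraries called. The number of windows per locus ran from 6 at Sox3 and 10 at Fgf5 to 39 at Lefty1 and 44 at Smad7. Lefty1 and Lefty2 are neighbours on chromosome 1, so their loci overlap, and a window in both was counted once in sums over the loci. Distances below run from a window's centre to the nearest annotated start of the gene named.

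In the mm10 coordinates of the files, the ligand genes are Fgf5 (ENSMUSG00000029337.2) at chr5:98254184-98277030 on the plus strand and Nodal (ENSMUSG00000037171.6) at chr10:61417972-61425338 on the plus strand. The co-receptor gene Tdgf1 (ENSMUSG00000032494.12) lies at chr9:110939603-110946158 on the minus strand. The inhibitor genes are Lefty1 (ENSMUSG00000038793.8) at chr1:180935022-180938400, Lefty2 (ENSMUSG00000066652.5) at chr1:180893108-180899103 and Smad7 (ENSMUSG00000025880.11) at chr18:75367529-75395935, all on the plus strand. The transcription factor genes are Otx2 (ENSMUSG00000021848.16) at chr14:48657677-48673819 on the minus strand, Pou3f1 (ENSMUSG00000090125.3) at chr4:124656807-124660655 on the plus strand and Sox3 (ENSMUSG00000045179.9) at chrX:60891366-60893430 on the minus strand.

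Mouse embryonic stem cells can be held in a naive state, and on the way to the later, primed state they turn on Fgf5, Otx2 and Pou3f1 (also called Oct6). Nodal is a secreted ligand of the TGF-beta family that acts through activin receptors, the co-receptor Tdgf1 (Cripto) and the Smad2 and Smad3 proteins, which bind DNA together with partners such as FOXH1. Lefty1 and Lefty2 are secreted inhibitors of Nodal and are themselves induced by it, and Smad7 inhibits the receptors from inside the cell.

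The cells were of the E14 line, and in all 24 libraries CTCF, a DNA-binding protein of insulators and chromatin loops, carried an auxin-inducible degron (AID), which leads to its degradation when the auxin IAA is added. The CTCF lines comprised a line labelled overexpressed control, either untreated or given IAA for 12 h, and 2 lines with overexpressed CTCF, one wild type and one mutated, both given IAA for 12 h. In the Chd4 and the Chd8 set, AID cells without IAA received the control hairpin shluci or 1 of 2 hairpins, shRNA1 and shRNA2, whose set is named for the chromatin remodeller gene. In the serum set, AID cells labelled as grown in serum were either untreated or given IAA for 12 h. For all libraries alike, the protocol text describes 1 medium, a serum-free one with N2, B27, LIF and the inhibitors PD0325901 and CHIR99021, and the serum labels were followed here. The labels state neither what the CTCF mutation changes nor whether a line was 1 clone. Each of the 12 groups had 2 libraries, and nothing in the labels says that these came from separate cultures, so the p-values below measure only the spread between these libraries.

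Each library was a list of peaks, without reads. In the serum lists with IAA, the peak names carry other replicate numbers than the labels, which were followed. The CTCF lines had lists of 120137 to 155087 peaks with a median width of 283 to 456 bp. In serum the lists held 59786 to 82502 peaks of 371 to 417 bp. Peaks were narrower in the Chd sets, with 80619 to 141742 peaks of 80 to 135 bp for Chd4 and 135410 to 166697 peaks of 75 to 138 bp for Chd8. For Chd4 the median width was 104 and 135 bp with shluci and 80 to 108 bp with the hairpins shRNA1 and shRNA2. A call therefore depends on the set, and each comparison was made between lists cut to one length by the authors' −log10 p. Strength is given below as the percentile of a peak's −log10 p within its list, where 100 is the strongest and 0 stands for no call. With lists cut to 59786 peaks, all 8 embryonic stem cell markers (Pou5f1, Sox2, Nanog, Esrrb, Zfp42, Klf4, Tfcp2l1 and Prdm14) had a called start in both control line libraries of either treatment. In the Chd4 set 5 of them did with shluci, 3 with shRNA1 and 1 with shRNA2, where the share of all protein-coding genes with a called start was 43.2%, 32.8% and 27.8%. In the same order, of the 4 markers of each other cell type, 1, 2 and 2 were called for endoderm, 2, 2 and 1 for mesoderm, 3, 1 and 2 for trophoblast, 3, 2 and 2 for neural cells and 0, 2 and 2 for feeder fibroblasts, and their part in the Chd4 results was not tested. All 4 neural markers had a called start in the control line too, so a called start does not tell cell types apart here.

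The loci of the 2 Lefty genes held the distal windows whose sequence is shown first, because both were called by 23 of the 24 libraries and each held 2 copies of the FOXH1 core. The stretches are from the plus strand of GRCm38 at chr1:180888797-180888996 and chr1:180924718-180924917, and the capitals mark the FOXH1 core AATCCACA on either strand and, in the first stretch, the OTX core TAATCC that overlaps one copy of it.
Lefty2, 4.33 kb upstream: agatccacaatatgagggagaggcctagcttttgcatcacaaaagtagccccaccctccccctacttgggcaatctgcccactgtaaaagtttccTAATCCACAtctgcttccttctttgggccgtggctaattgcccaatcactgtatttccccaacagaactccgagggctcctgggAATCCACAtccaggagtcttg
Lefty1, 10.3 kb upstream: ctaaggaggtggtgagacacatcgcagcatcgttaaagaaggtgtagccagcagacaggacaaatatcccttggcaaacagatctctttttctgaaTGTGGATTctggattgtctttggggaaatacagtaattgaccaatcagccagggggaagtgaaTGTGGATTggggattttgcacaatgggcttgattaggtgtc
The FOXH1 core was present in 1.91% of all windows and in 4 of the 231 at the loci. At least 2 copies were present in 63 of all 233706 windows, or 0.0270%, and these 2 Lefty windows were among them. The copies lay 83 bp apart in the Lefty2 window and 63 bp apart in the Lefty1 window. Both windows lie outside genes. These are matches of letters and were not tested as binding sites, and the second window was chosen after its values were seen.

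The Lefty2 window at chr1:180888526-180889026 was called by 23 of 24 libraries. Its percentile was 97.2 and 98.6 in the control line without IAA, 97.8 and 98.5 with IAA, 97.5 and 97.8 in the wild-type CTCF line, 98.5 and 98.0 in the mutated CTCF line, 93.1 and 91.9 in serum and 96.1 and 94.3 in serum with IAA. In the Chd8 set it lay between 92.9 and 97.9. In the Chd4 set it was 91.8 and 85.8 with shluci, 8.32 and 61.2 with shRNA1 and 0 and 48.2 with shRNA2, so that the 4 hairpin libraries were below all 20 others. The Lefty1 window at chr1:180924509-180925009 was called by 23 libraries as well. Its percentile was 80.8 and 92.1 with shluci, 76.3 and 74.5 with shRNA1 and 20.3 and 0 with shRNA2, and it was at or above 76.1 in all libraries outside the Chd4 set.

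Other distal windows were called by 23 or 24 libraries as well. The window in the first intron of Fgf5, 1.59 kb downstream of the start at chr5:98255752-98256252, was called by all 24 libraries, with a mean percentile of 91.0 over them. Its lowest value was 53.2, in the first shRNA1 library of the Chd4 set, and its highest 98.8, in the second shRNA2 library of the Chd8 set. In the Chd4 set it was at 98.3 and 98.6 with shluci and at 53.2, 88.3, 89.8 and 83.6 in the 4 hairpin libraries. Near Otx2, the window 8.05 kb downstream of a start was called by all 24 libraries with a mean percentile of 93.3, the highest of the windows named here. Near Nodal, the window 1.96 kb upstream of the start, which held the OTX core, was called by 23 libraries with a mean percentile of 81.5, and near Tdgf1 the window 14.4 kb upstream, inside an intron of Lrrc2, by 23 with a mean of 75.1. In the 4 hairpin libraries of the Chd4 set the Tdgf1 window was at 20.8, 0, 48.1 and 53.2, below the 63.8 to 96.8 of all 20 others, and the Nodal window was at 68.9, 72.9, 71.8 and 0. The OTX core was present in 38 of the 231 windows, or 16.5%, against 15.2% of all windows, and the octamer ATTTGCAT in 8, or 3.46%, against 4.18%, so both shares at the loci were close to those elsewhere.

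At the starts, the groups differed mainly by set. With all lists at 59786 peaks, 7 of the 9 genes were called within 1 kb of a start in both libraries of the control line without IAA and 9 with IAA, 5 in the wild-type CTCF line, 9 in the mutated CTCF line, and 8 in serum without and with IAA. In the Chd4 set the count was 5 with shluci and 3 with either hairpin, and in the Chd8 set 5, 3 and 5. The share of the 21938 protein-coding genes called in both libraries was 61.5%, 62.0%, 60.1% and 61.1% in the CTCF lines and 63.2% and 63.6% in serum, but 43.2%, 32.8% and 27.8% in the Chd4 set and 47.3%, 46.3% and 51.1% in the Chd8 set, and the members' counts were lowest in the sets where this share was lowest. In bulk libraries fewer cells with an open site and less opening per cell cannot be told apart. The count of 5 in the wild-type CTCF line rested on its first library, which had 5 called starts where the second had 9.

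**Figure D1:**
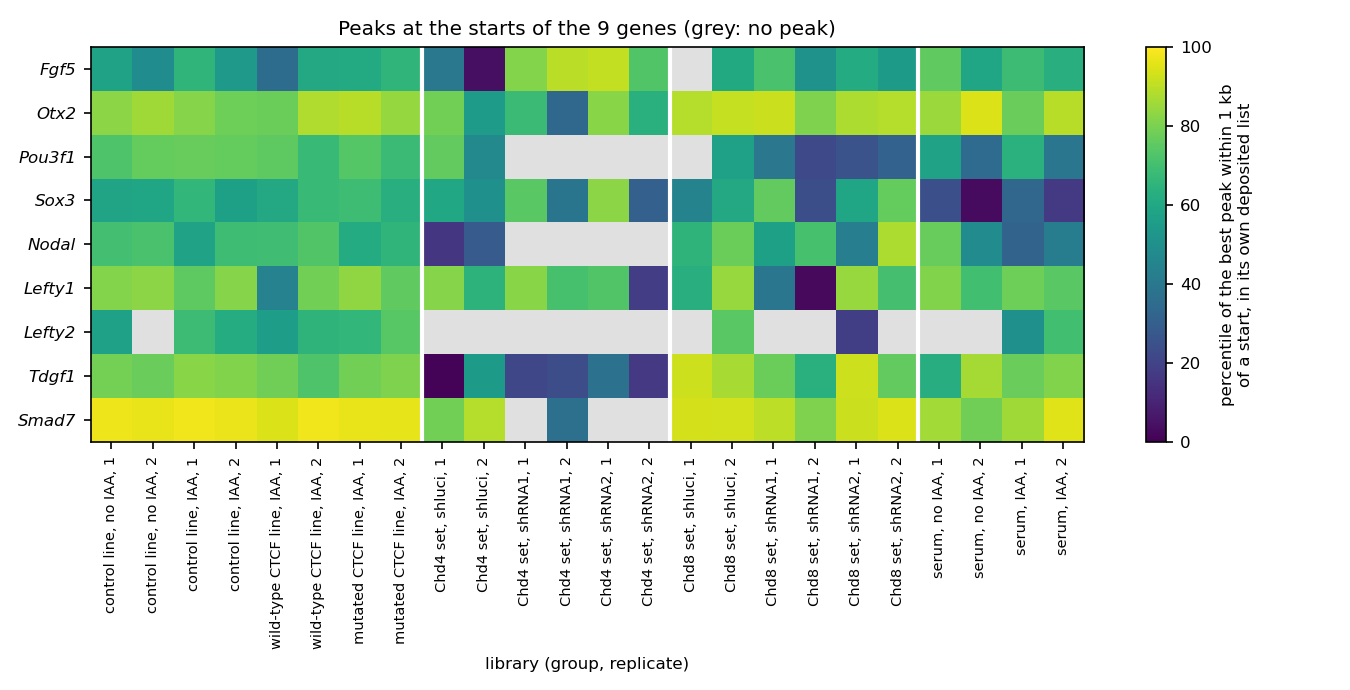
Percentile of the best peak within 1 kb of a start (colour, 0 to 100, in the deposited list of each library) for the 9 genes (rows) in the 24 libraries (columns; white lines separate the CTCF lines, the Chd4 set, the Chd8 set and the serum set). Grey cells have no peak: Pou3f1 and Nodal are grey in the 4 hairpin libraries of the Chd4 set and coloured in its 2 shluci libraries.

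Among the ligands, Nodal had a peak at its start in 20 of 24 deposited lists, and the 4 without were the hairpin libraries of the Chd4 set. In the 2 shluci libraries of that set the deposited fold over the local background, 3.14 and 4.04, lay within the 3.08 to 4.23 of the CTCF lines. The deposited −log10 q was 1.54 and 3.12 there and 16.2 to 27.6 in the CTCF lines. These per-peak values are the authors' and describe a peak within its own list. The start of Fgf5, a growth factor gene used as a marker of primed cells, was called in 21 libraries when lists were cut to one length per set. Its window was not called in either shluci library of the Chd4 set, and in the 4 hairpin libraries its percentile was 53.4, 88.3, 83.7 and 72.8. Both shluci lists did hold a weak peak there before they were cut, at percentile 40.2 and 4.23, so the difference is one of rank and not of presence.

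The sequence of the Fgf5 start is shown because it was the only start of the 9 genes that was called with the Chd4 hairpins and not with shluci. It is the RefSeq promoter of GRCm38.p6 at chr5:98253934-98254233 on the plus strand, from 250 bases before to 50 after the start, with no part in capitals.
Fgf5 promoter: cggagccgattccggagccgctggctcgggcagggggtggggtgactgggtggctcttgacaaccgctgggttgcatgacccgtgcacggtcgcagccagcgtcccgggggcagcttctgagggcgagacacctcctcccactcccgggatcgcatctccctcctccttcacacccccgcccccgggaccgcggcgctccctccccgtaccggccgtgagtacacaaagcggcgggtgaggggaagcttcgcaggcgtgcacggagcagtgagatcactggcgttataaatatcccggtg
Its G and C content was 68.3%, and it held 29 CpG in 300 bases, which is 0.828 of the number that its C and G content would give. The RefSeq promoter of Nodal held 5 CpG and that of Tdgf1 held 7, with ratios of 0.229 and 0.545. The 4 RefSeq promoters of Otx2 held 6, 8, 16 and 11 CpG with ratios of 0.463, 0.475, 0.891 and 0.541, so one of them had a higher ratio than Fgf5. Promoter entries were matched for 4 of the 9 genes (Fgf5, Otx2, Nodal and Tdgf1).

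Among the transcription factors, Pou3f1 had the clearest pattern. Its start window at chr4:124656897-124657397 lies in its exon and was called at 64.4 to 76.6 in the 8 CTCF line libraries and at 16.3 to 56.8 in the 4 serum libraries. In the Chd4 set it was 59.5 and 38.9 with shluci and 0 in all 4 hairpin libraries, which had no peak there at the deposited length either. In the Chd8 set it was 0 and 47.4 with shluci, 28.6 and 0 with shRNA1 and 22.9 and 31.6 with shRNA2, with no order between the groups. Otx2 was called at a start in all 24 libraries, and Sox3, a gene of the SOX family with a single exon, in 23 at the length of its set, the exception being the second serum library with IAA. The deposited fold at the Sox3 start was 2.81 to 3.41 in serum and 5.36 to 7.01 in the CTCF lines, which differ in list length as well.

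Among the inhibitors and the co-receptor, the Smad7 start was the strongest, with percentiles of 93.5 to 97.8 in the CTCF lines. In the Chd4 set its window was at 64.5 and 87.4 with shluci, 0 and 28.6 with shRNA1 and 0 and 0 with shRNA2. The Lefty1 start was called in 23 of 24 libraries at the length of each set, all 4 hairpin libraries of the Chd4 set among them. Its window 0.828 kb upstream was called by 1 of those 4 libraries and the one 0.279 kb upstream by 3. Lefty2 had the least constant start: a peak was listed in 7 of 8 CTCF line libraries, in 0 of 6 of the Chd4 set, in 2 of 6 of the Chd8 set, in 0 of 2 in serum and in 2 of 2 in serum with IAA. At the length of each set, the Tdgf1 start was called in all 6 Chd8 and all 8 CTCF line libraries and in 3 of 6 Chd4 libraries, 1 in each group, and all 6 deposited Chd4 lists held a peak there.

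Degradation of CTCF was described by the windows that every library without IAA called and no library with IAA called (lost), and the reverse (gained). No test was run per window, since a two-sided exact test of 2 against 2 libraries cannot give a p below 0.333, and each count stands beside the same count over all windows tested. In serum-free medium, 11 of 197 windows at the loci were lost, or 5.58%, against 4.42% of all windows, and 5 were gained, or 2.54%, against 3.66%. In serum, 7 of 144 were lost, or 4.86%, against 4.50%, and 4 were gained, or 2.78%, against 4.94%. In both media together 4 of 215 were lost, or 1.86%, against 0.773%, and 0 were gained, against 0.0782%. All of these shares rest on few windows and the first 4 lie near the background. The 4 windows lost in both media became 0 with lists of 50% of the length and 1 when a peak had to cover 50% of the window.

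Of the 4 windows lost in both media, 3 were in the Lefty1 locus. The window 15.2 kb upstream of Lefty1, between the 2 Lefty genes at chr1:180919584-180920084, was at percentile 65.9 and 59.8 in the control line, 0 and 0 with IAA, 14.4 and 72.7 in serum and 0 and 0 in serum with IAA. With IAA it was at 45.1 and 23.9 in the wild-type and 54.4 and 36.3 in the mutated CTCF line, so that all 4 of those libraries called it. The window 39.6 kb downstream of Lefty1, in the last exon of Tmem63a at chr1:180974421-180974921, had the same pattern: 52.4 and 37.4, then 0 and 0 with IAA, 63.1 and 61.7 in serum, 0 and 0 in serum with IAA, 55.0 and 32 in the wild-type and 46.5 and 51.7 in the mutated CTCF line. It was called by all 6 Chd8 libraries and by none of the 6 Chd4 libraries. The third, in an intron of Ephx1 52.7 kb downstream of Lefty1, was at 10.1 and 1.58 without IAA and in the CTCF lines under IAA was called by 1 library only, of the wild-type line. The fourth, 8.90 kb downstream of an Otx2 start, was at 97.5 and 33.7 without IAA and at 0 in all 6 other libraries of the CTCF lines, and the window beside it, 8.05 kb downstream, had the same value of 97.5 in the first library. In serum the window 8.90 kb downstream was at 2.31 and 9.65 without IAA and at 0 and 0 with IAA. The deposited list of the second serum library with IAA held a peak there, at 17.7.

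The sequences around the CTCF matches are shown for 3 windows. The first 2 were lost in both media and called in the wild-type and the mutated CTCF line under IAA. Their loss in serum-free medium and their gain in those lines rest on the same 2 control line libraries with IAA. The third was the only window of the loci lost in serum-free medium that held the consensus. The capitals mark, in each, the best match, or the first of equal ones, to the consensus of 14 letters on either strand, with the first stretch at chr1:180919747-180919946, the second, of the match alone, at chr1:180974580-180974593, and the third at chr1:180976409-180976608, all on the plus strand of GRCm38.
Lefty1, 15.2 kb upstream: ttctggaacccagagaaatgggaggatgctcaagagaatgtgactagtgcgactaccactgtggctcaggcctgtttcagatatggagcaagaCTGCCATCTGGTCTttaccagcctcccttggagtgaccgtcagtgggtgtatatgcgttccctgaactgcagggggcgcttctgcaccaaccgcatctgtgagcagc
Lefty1, 39.6 kb downstream: GCTCCCTCTTGTGG
Lefty1, 41.6 kb downstream: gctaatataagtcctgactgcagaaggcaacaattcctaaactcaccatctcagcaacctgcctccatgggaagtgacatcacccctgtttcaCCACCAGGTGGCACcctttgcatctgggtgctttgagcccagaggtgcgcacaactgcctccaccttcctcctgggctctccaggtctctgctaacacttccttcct
The first had 2 mismatches to the consensus, 13 bp from the window's centre. A place 65 bp further along matched equally well and is not in capitals. The second had 2, 84 bp from the centre. As many as 2 mismatches were found in 21.6% of all windows, so such a match is common. The other 2 windows lost in both media had 4 mismatches, and 99.3% of windows had 4 or fewer. The third sequence is from the window in an intron of Ephx1 at chr1:180976344-180976844, which matched with 0 mismatches. It was at 32.7 and 27.7 without IAA and 0 and 0 with IAA, and at 0 in the 4 libraries of the wild-type and mutated CTCF lines, although 3 of these had a weak peak there in the deposited list, at 21.9 and 7.80 in the wild-type and 6.03 in the mutated line. In serum it was at 2.56 and 0 without IAA and 0 and 0 with IAA. Over all windows, a consensus match with at most 1 mismatch went with a loss of 26.0% in serum-free medium, against 3.16% without one. At the loci 9 of 231 windows held such a match, or 3.90% against 5.57% of all windows. Of those tested, 1 of 7 was lost in serum-free medium, 0 of 6 in serum and 0 of 8 in both. Over all windows with such a match, 24.5% were lost in serum and 7.74% in both media.

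Overexpressed wild-type or mutated CTCF was compared with the control line, all under IAA, and both comparisons share the control line's 2 IAA libraries with the one above. In the wild-type line 4 of 184 windows at the loci were gained, or 2.17%, against 2.99% of all windows, and 4 were lost, against 3.22%. All 4 gained windows were in the Lefty1 locus, the windows 15.2 kb upstream and 39.6 kb downstream among them. In the mutated line 4 of 188 were gained, or 2.13%, against 2.84%, of which 3 were in the Lefty1 locus and 1 in the Nodal locus, and 5 were lost, or 2.66%, against 2.43%. The shares were near or below the background in each case.

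**Figure D2:**
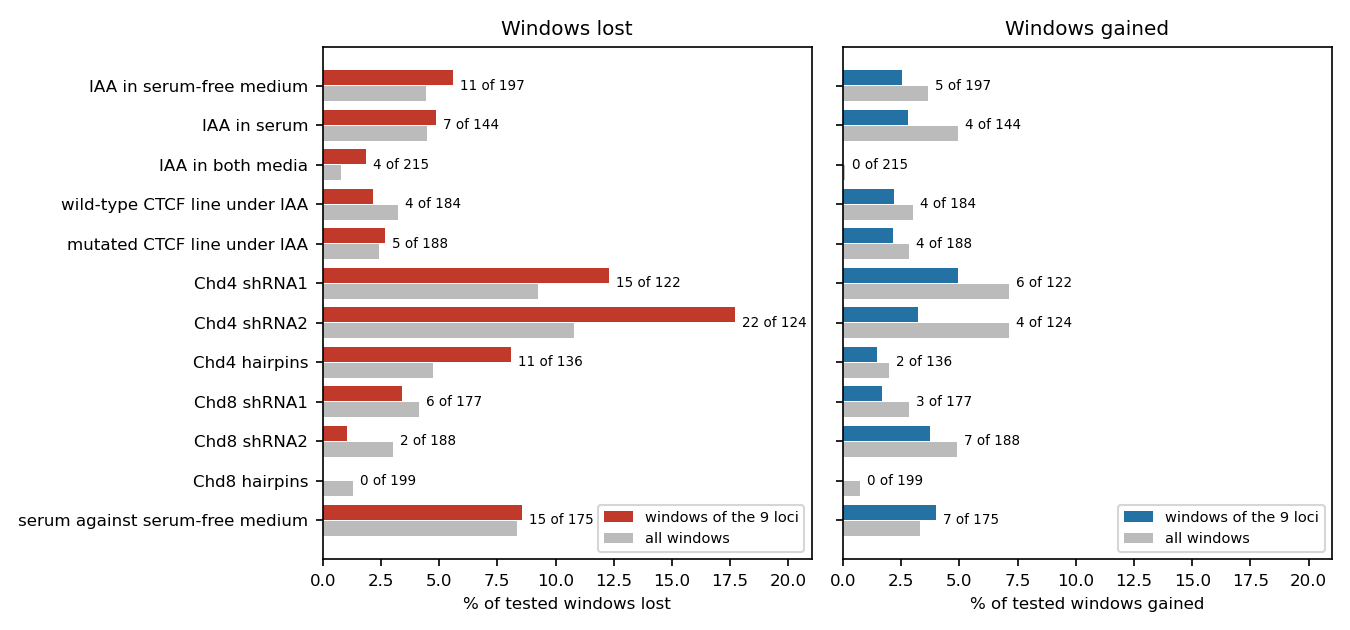
Share of tested windows that were lost (left) and gained (right) in each of 12 comparisons, for the windows of the 9 loci (coloured bars, with the number lost or gained of the number tested) and for all windows (grey bars). The coloured bar exceeds the grey one most for losses with the Chd4 hairpin shRNA2, 17.7% against 10.8%.

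The hairpins of the Chd4 set went with fewer calls at most of the loci. Chd4 is the ATPase of the NuRD complex, which remodels nucleosomes and removes acetyl groups from histones. With shRNA1, 15 of 122 windows at the loci were lost against shluci, or 12.3%, against 9.25% of all windows, and 6 were gained, or 4.92%, against 7.15%. With shRNA2, 22 of 124 were lost, or 17.7%, against 10.8%, and 4 were gained, or 3.23%, against 7.14%. Without one library at a time they were 20 to 34 lost and 7 to 15 gained with shRNA1, and 29 to 40 and 5 to 13 with shRNA2. With the 4 hairpin libraries together, 11 of 136 were lost, or 8.09%, against 4.73%, and 2 were gained, or 1.47%, against 1.98%. The hairpin libraries called fewer windows in all, 58386 to 62909 against 66304 and 69091 with shluci, and the part of this in the losses was not tested. The median peak widths of the deposited lists given above overlapped between shluci and the hairpins when replicates were pooled. In the first libraries the width was 104 bp with shluci and 88 and 80 bp with the hairpins. In the second it was 135 bp, against 107 and 108 bp. The part of the width in the losses was not tested either.

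Counted by library, Smad7 had 19 and 17 called windows with shluci, 10 and 12 with shRNA1 and 8 and 10 with shRNA2. Lefty1 had 16 and 16, then 8 and 12, then 7 and 7, and Lefty2 had 15 and 18, then 8 and 10, then 6 and 7. Tdgf1 had 9 and 9, then 7 and 5, then 5 and 4. Pou3f1 had 9 and 6, then 2 and 3, then 3 and 4, and Nodal had 7 and 9, then 6 and 4, then 2 and 6. In these 6 genes no hairpin library reached the lower shluci library, while at 26.9% of the 20658 protein-coding loci tested the hairpin libraries were likewise all lower. These counts are from lists of one length for the set. In the deposited lists Nodal, with 11 and 9 against 10, 5, 3 and 6, and Smad7, with 23 and 17 against 17, 13, 16 and 10, overlapped. In lists of 59786 peaks Nodal, with 6 and 3 against 5, 2, 1 and 3, and Pou3f1, with 4 and 5 against 1, 1, 2 and 4, did. Of these 6, only Lefty1, Lefty2 and Tdgf1 were without overlap at all 3 lengths. The loci of Lefty1 and Lefty2 share windows, so their counts and p-values are not separate results. Fgf5 went the other way, with 1 and 1 window with shluci, 4 and 3 with shRNA1 and 5 and 3 with shRNA2, which 4.98% of loci did, and overlapped in the deposited lists, with 4 and 2 against 7, 3, 7 and 3. Otx2, with 12 and 11, 13 and 11, and 10 and 11, and Sox3, with 2 and 1, 2 and 1, and 2 and 2, overlapped. The shares of loci without overlap, here and below, and the median given next were not matched for the number of windows in a locus. The difference, hairpins minus shluci, was -8.75 windows at Lefty2, -8.00 at Smad7, -7.50 at Lefty1, -4.50 at Pou3f1, -3.75 at Tdgf1, -3.50 at Nodal and 2.75 at Fgf5, with a median over all loci of -1.25. The exact two-sided permutation test gave p = 0.0667 for these genes except Nodal, with p = 0.133, and 0.0667 is the smallest value that 2 libraries against 4 allow. The Fgf5 difference turned to -0.50 when a peak had to cover 50% of the window. After Benjamini-Hochberg adjustment over the 20658 loci the exact permutation p was 0.276 for all of them but Nodal, with 0.393, so none passed 0.05.

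**Figure D3:**
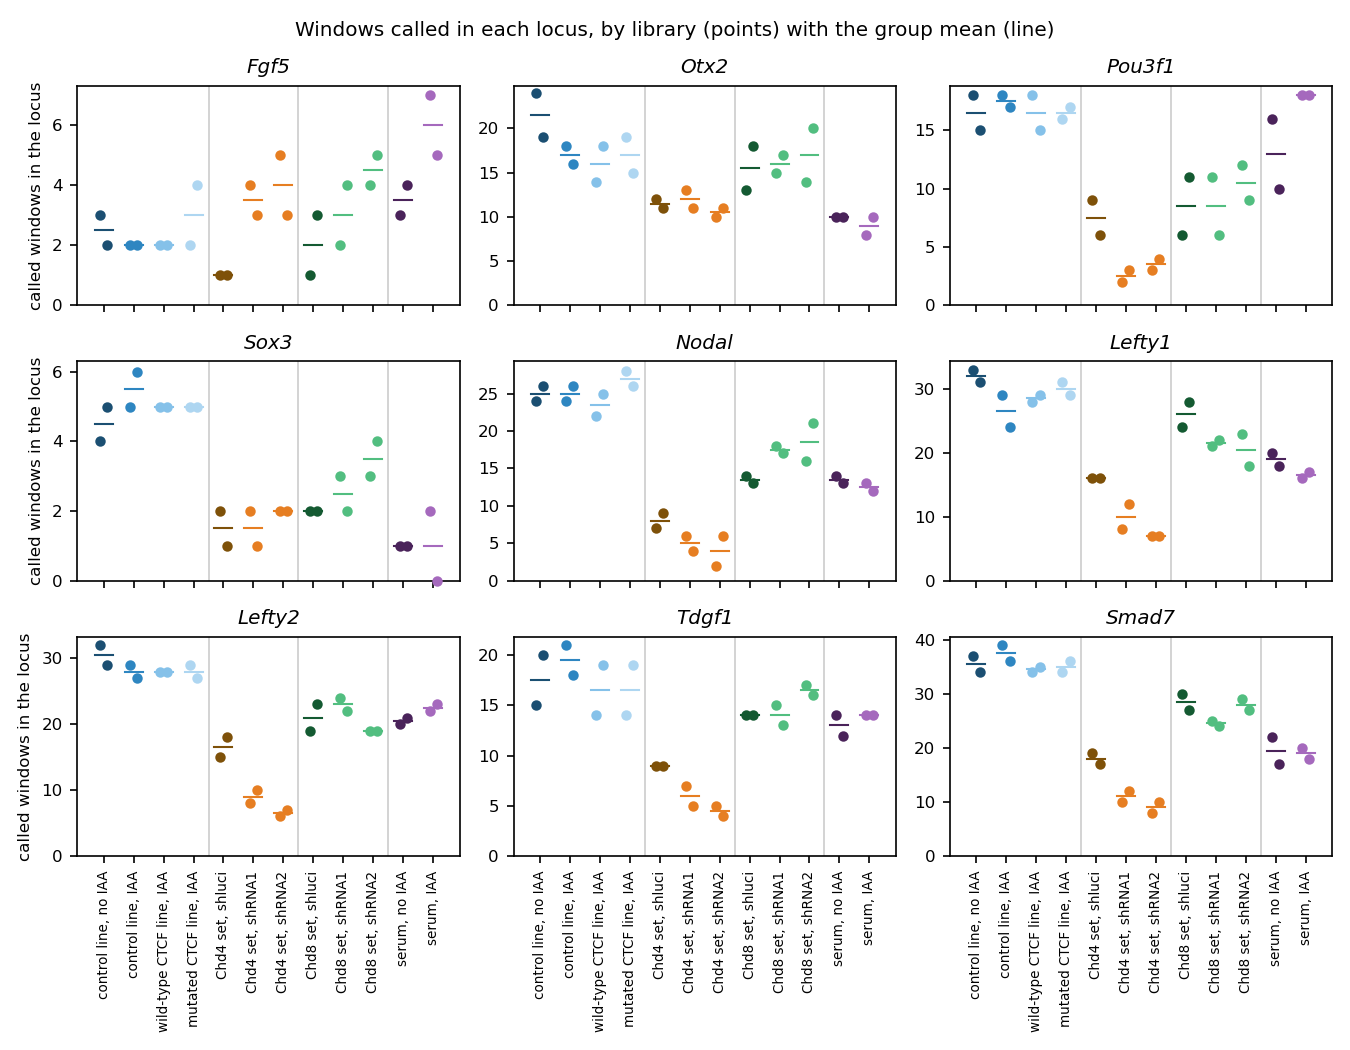
Number of called windows in the locus of each gene (vertical axis, from 0) in each library (points), with the mean of the 2 libraries of a group (line); grey lines separate the sets, whose lists differ in length, so heights compare within a set. In the Chd4 set the 4 hairpin points lie below the 2 shluci points at 6 genes and above them at Fgf5. The Lefty1 and Lefty2 loci, among the 6, share windows.

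The windows lost with all 4 Chd4 hairpin libraries lay at Smad7, Pou3f1, Nodal, Tdgf1 and Lefty2. At Smad7 they were 22.6, 7.08 and 6.54 kb upstream and 17.6 and 49.6 kb downstream of the start. The pair nearest the start had the same values with shluci, 88.7 and 78.0, and was at 0 in the 4 hairpin libraries and at or above 84.6 in the CTCF lines. In the deposited lists, a hairpin peak was held at the window 6.54 kb upstream, at 5.26. Hairpin peaks were also listed 22.6 kb upstream, at 27.5 and 5.01, and 49.6 kb downstream, at 36.3, but not at the other Smad7 windows. At Pou3f1 they were the start window and those 39.5 and 51.8 kb downstream, the last in an exon of Fhl3 at 24.7 and 87.1 with shluci. At Tdgf1 the window 48.7 kb upstream, in an intron of Gm10030, was at 46.0 and 72.9 with shluci, and at Nodal the window 35.6 kb upstream, in an intron of Pald1, was at 76.4 and 39.3. In the Lefty2 locus the window 42.3 kb upstream, near the start of Sde2, was at 30.0 and 45.2 with shluci and at 82.5 or more in all libraries outside the Chd4 set. The 2 gained windows were the Fgf5 start and a window 16.5 kb upstream of Otx2, in an intron of the antisense gene Otx2os1. The Otx2 window was at 0 and 0 with shluci and at 74.8, 64.8, 45.1 and 80.7 with the hairpins. In the Chd8 set the same window was at 79.7 and 43.8 with shluci, 0 and 0 with shRNA1 and 0 and 50.0 with shRNA2. In the control line without IAA it was at 9.54 and 11.5. At the starts, Pou3f1 was the only one of 8 tested genes that was lost, against 3.14% of 14826 protein-coding genes, and Fgf5 the only one gained, against 0.668%. With the deposited lists Nodal was lost too and Fgf5 was not gained.

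**Figure D4:**
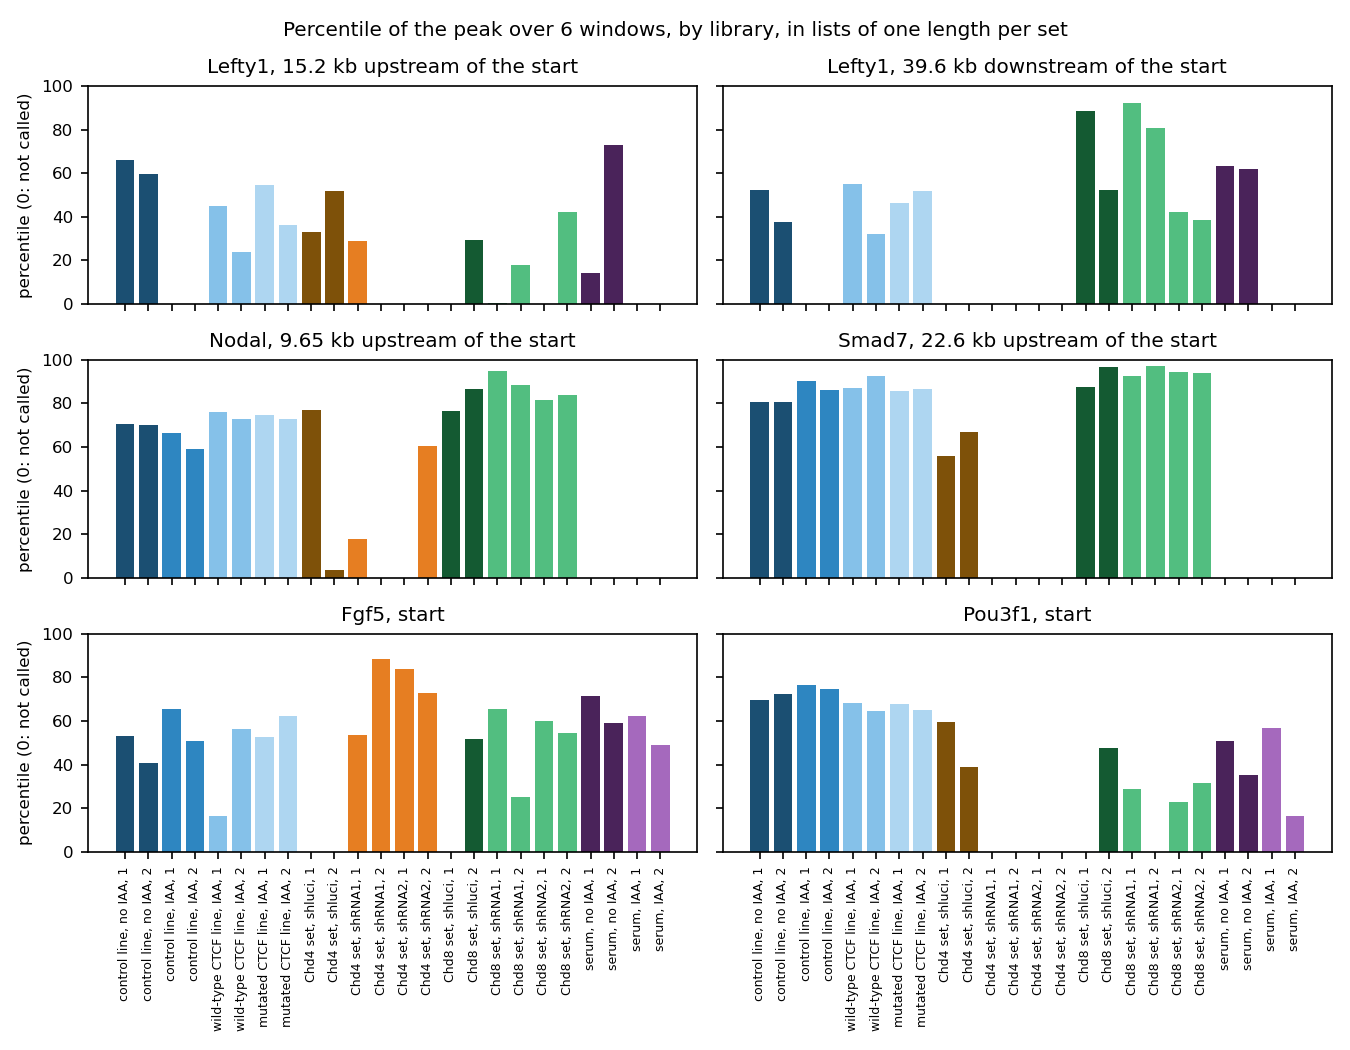
Percentile of the peak over 6 windows (vertical axis, 0 to 100, where 0 is no call) in each of the 24 libraries (bars, coloured by group), in lists cut to one length per set. The 2 Lefty1 windows are at 0 in the 4 libraries of the control line with IAA and of serum with IAA, the Nodal and Smad7 windows are at 0 in the 4 serum libraries, and in the Chd4 set the Fgf5 start is at 0 with shluci and the Pou3f1 start at 0 with the hairpins.

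The Chd8 set showed little of this. Chd8 is a remodeller of the CHD family that binds CTCF and beta-catenin. With shRNA1, 6 of 177 windows at the loci were lost, or 3.39%, against 4.15% of all windows, and 3 were gained, or 1.69%, against 2.84%. With shRNA2, 2 of 188 were lost, or 1.06%, against 3.01%, and 7 were gained, or 3.72%, against 4.89%. Without one library at a time these counts were 11 to 21 lost and 11 to 18 gained with shRNA1, and 10 to 15 and 11 to 26 with shRNA2. With the 4 hairpin libraries together 0 of 199 were lost, against 1.30%, and 0 were gained, against 0.712%. The Lefty1 locus had 24 and 28 called windows with shluci, 21 and 22 with shRNA1 and 23 and 18 with shRNA2, a difference of -5.00 without overlap, which 3.59% of loci showed in this direction. The Nodal locus had 14 and 13, then 18 and 17, then 16 and 21, a difference of 4.50 without overlap, which 3.26% of loci showed in that direction. The exact two-sided permutation p was 0.0667 for Lefty1 and 0.133 for Nodal, and 1.00 for both after adjustment over 20632 loci, and the Nodal difference turned to -0.25 when a peak had to cover 50% of the window. In lists of 59786 peaks both loci overlapped between shluci and the hairpins: Lefty1 had 12 and 18 against 12, 12, 13 and 11, and Nodal 7 and 12 against 7, 10, 7 and 12, a difference of -0.50. In the deposited lists Lefty1 overlapped too, with 24 and 29 against 21, 24, 25 and 18, and Nodal did not. At the length of the set, the other 7 loci overlapped between shluci and the hairpins.

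The 4 serum libraries were compared with the 4 control line libraries, with and without IAA in each, in lists of 59786 peaks. The medium cannot be told apart from the set here, since the lines, labelled CTCF AID in serum and CTCF AID with overexpressed control in the other, and the lengths of the deposited lists differ with it. At the loci 15 of 175 windows were lost in serum, or 8.57%, against 8.35% of all windows, and 7 were gained, or 4.00%, against 3.31%, both near the background. Of the lost windows 6 of 27 tested were at Nodal, 4 of 38 at Smad7, 2 of 5 at Sox3, 2 of 29 at Lefty1 and 1 of 19 at Otx2. Of the gained ones 3 of 21 were at Pou3f1, 2 of 18 at Tdgf1, 1 of 8 at Fgf5 and 1 of 38 at Smad7. Neighbouring windows can share a peak. In the control line 3 of the 4 lost at Smad7, 23.3, 22.6 and 22.0 kb upstream, had the same values, as did those 12.3 and 11.8 kb upstream of Nodal.

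At Nodal the lost windows were 36.1, 12.3, 11.8 and 9.65 kb upstream and 0.889 and 51.1 kb downstream of the start. In the control line, 2 of them had the same values as a neighbouring window that was not lost. The neighbour of the window 0.889 kb downstream was the start window, at 44.2, 27.2, 18.2 and 20.3 in serum. The neighbour of the window 36.1 kb upstream, 35.6 kb upstream, was at 46.3, 42.5, 0 and 67.9 in serum. The window 9.65 kb upstream, at chr10:61408070-61408570, was at percentile 58.9 to 76.0 in the 8 CTCF line libraries and at 0 in the 4 serum libraries, whose deposited lists held no peak there either. It was called by all 6 Chd8 libraries at 76.5 to 95.0 and by 4 of 6 Chd4 libraries. The 200 bases at its centre, chr10:61408220-61408419 on the plus strand of GRCm38, are shown because this window had the highest mean percentile over all 24 libraries, 51.4, of the windows at Nodal lost in serum. In the control line alone, in lists of 59786 peaks, it was at 41.4, 39.5, 32.2 and 17.5, below the window 36.1 kb upstream with 43.9, 62.4, 48.0 and 58.1. They hold no match to the FOXH1, octamer or OTX letters and have no part in capitals.
Nodal, 9.65 kb upstream: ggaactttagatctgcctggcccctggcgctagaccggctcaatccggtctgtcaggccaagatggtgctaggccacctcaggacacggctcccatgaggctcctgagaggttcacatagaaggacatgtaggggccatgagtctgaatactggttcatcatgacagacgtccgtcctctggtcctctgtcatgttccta
The window 22.6 kb upstream of Smad7 was at 80.8 to 92.5 in the CTCF lines, 87.6 to 97.0 in the Chd8 set and 0 in serum, although 1 deposited serum list held a peak there. Of the 15 lost windows 4 were called by all 6 Chd8 libraries and 2 by none, and 10 had no peak in any deposited serum list. The windows gained at Pou3f1 were 43.1, 17.0 and 9.90 kb upstream of its start, in introns of Gm2164. The first was called by all 4 control line libraries in lists of 120137 peaks, at 16.9, 23.5, 7.43 and 30.6, so its gain depends on the length of the lists. At the deposited length 3 of the 7 windows gained at the loci were gained. The one 9.90 kb upstream was at 43.7, 44.8, 31.8 and 38.6 in serum and at 0 in all 20 other libraries.

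**Figure D5:**
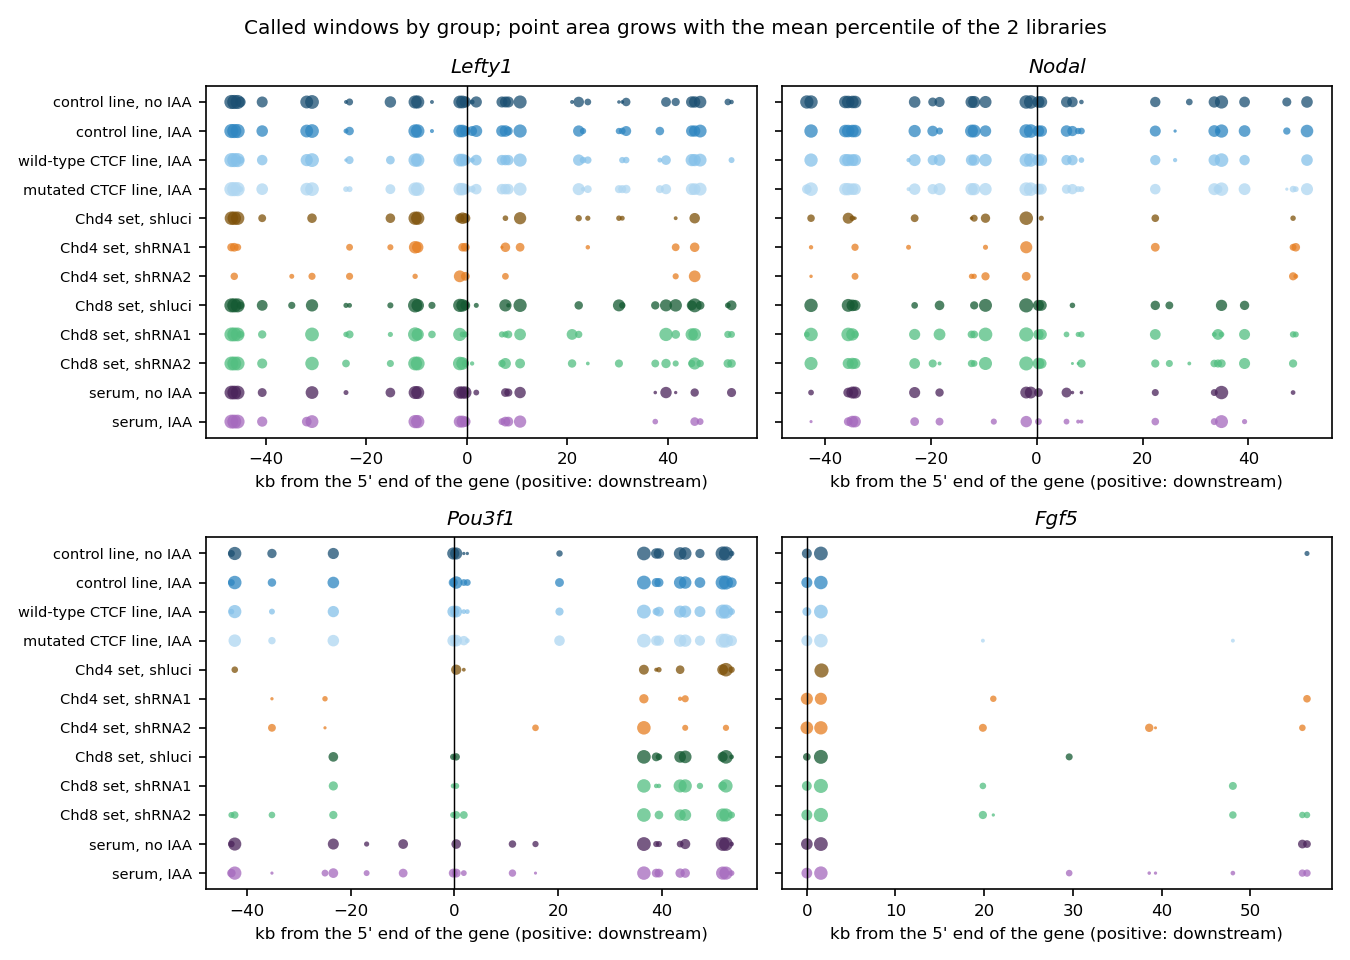
Called windows of the Lefty1, Nodal, Pou3f1 and Fgf5 loci by distance from the 5' end of the gene (horizontal axis, kb, downstream positive) and by group (rows); the area of a point grows with the mean percentile of the 2 libraries, and no point means no call. The Fgf5 locus has its 2 main windows at the start and 1.59 kb downstream, and the points 9.90 kb upstream of Pou3f1 are present in the 2 serum groups only.

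Counted by library, the Nodal locus had 21, 19, 20 and 21 called windows in the control line and 14, 13, 13 and 12 in serum, a difference of -7.25. Smad7 had 25, 24, 27 and 27 and then 22, 17, 20 and 18, a difference of -6.50, and at 18.5% of 20303 loci serum was likewise lower without overlap. Fgf5 had 2, 1, 2 and 2 and then 3, 4, 7 and 5, a difference of 3.00, and Tdgf1 had 10, 11, 11 and 10 and then 14, 12, 14 and 14, also 3.00, and 6.84% of loci were higher without overlap. The exact two-sided permutation test within IAA treatments gave p = 0.0556 for each of the 4, the smallest that 36 arrangements allow, and p = 0.180 after adjustment over the loci. Sox3 with -2.50 and Lefty1 with -3.00 had the same p-values and overlapped, and the Lefty1 difference turned to 1.5 with lists of 50% of the length. Pou3f1 had 10, 11, 10 and 10 and then 16, 10, 18 and 18, a difference of 5.25 with an exact permutation p of 0.167. With the deposited lists, which are longer in the control line, the difference was -4.50 at Tdgf1 and -1.75 at Pou3f1, and it was -0.25 at Tdgf1 with lists of 50% of the length. For IAA over both media the exact permutation p was 0.0556 at Lefty1, with 33 and 31 windows against 29 and 24 in the control line and 20 and 18 against 16 and 17 in serum, a mean difference of -4.00, and 0.994 after adjustment over 20601 loci. The difference at the other 8 loci lay between -2.75 and 3.00, with exact permutation p from 0.167 to 1.00.

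Other genes of the pathway were taken from fixed lists of 17 Nodal pathway genes (receptors, Smads, Foxh1, convertases and co-repressors among them) and 12 primed pluripotency genes. In the control line 16 of the 17 Nodal pathway genes had a called start in both libraries without and with IAA, where 61.5% and 62.0% of all protein-coding genes had one, and 16 in serum in both states, beside 63.2% and 63.6%. It was 13 in the wild-type and 15 in the mutated CTCF line, beside 60.1% and 61.1%. The count was 9 with shluci and 6 with either hairpin in the Chd4 set, where the share of all protein-coding genes was 43.2%, 32.8% and 27.8%. It was 8, 6 and 10 in the Chd8 set, beside 47.3%, 46.3% and 51.1% of all genes. The primed list had 10 and 9 of 12 in the control line, 8 in either of the wild-type and mutated CTCF lines and 12 and 12 in serum, 7, 4 and 2 in the Chd4 set and 6, 5 and 7 in the Chd8 set. Of the windows around the Nodal pathway genes 13 of 269 were lost with the Chd4 hairpins, or 4.83%, and around the primed genes 19 of 170, or 11.2%, beside 8.09% at the 9 loci and 4.73% of all windows. In serum 5.61% of the windows around the Nodal pathway genes and 3.93% around the primed genes were lost, both below the 8.35% of all windows. The shares gained were 1.87% and 6.11%, against 3.31% of all windows.

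Across the 12 groups, the mean number of called windows in a locus can be set beside that of every other protein-coding gene that lies over 500000 bp away or on another chromosome, with lists of one length. The gene most alike was Lima1 for Smad7, with a Pearson r of 0.994, Tmem184b for Nodal (0.992), Pigu for Lefty1 (0.990), Mpig6b for Lefty2 (0.990), Sult3a2 for Pou3f1 (0.989), Lrrc4b for Tdgf1 (0.987), 1700006A11Rik for Fgf5 (0.961), Zfp385b for Sox3 (0.952) and Slco1a4 for Otx2 (0.797). Each is the highest of 20755 to 20778 correlations over 12 points that share the list length and the peak width of their set, and is given as a description. Otx2 had the lowest of the 9 and was also the gene whose start was called in every library at the length of its set.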

How the data were processed

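Each of the 24 libraries was an ATAC-seq peak list. Per the submitters' processing notes, the tools were Trim Galore, Bowtie2, MACS2 and deepTools with the build mm10. Their versions and settings are not given in the sources used here. The deposited lists give for each peak its coordinates, a score, a fold enrichment, and a −log10 p and −log10 q value made by the authors' peak caller. The deposited lists hold no read counts, so the depth of the libraries is unknown here and no interval from counts was given.

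Lists were cut by −log10 p to the shortest list of their set (120137, 80619, 135410 and 59786 peaks for the CTCF lines, Chd4, Chd8 and serum), or to 59786 where sets were compared. Windows reached 250 bp to either side of a summit, were placed from the best percentile down without overlap, and were kept if at least 2 libraries called them with an overlap of 1 bp or more. A wide peak can call neighbouring windows, so the peak width bears on every count. A window was lost if every reference library and no treated library called it, and gained in the reverse case. Called windows per locus were compared by exact two-sided permutation of libraries, within medium for IAA and within IAA treatment for the medium. P-values were adjusted by Benjamini-Hochberg over all protein-coding loci in each comparison, in place of the 36 tests planned.

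The windows named are, per gene, the best at a start and the best over 1 kb from any start, those lost or gained with IAA in both media, those with a CTCF consensus changed by IAA, and the best-ranked lost and gained windows of the Chd4, Chd8 and medium comparisons. Other windows lost or gained with the Chd4 hairpins or the medium, and the Lefty1 windows with 2 FOXH1 cores and 0.279 kb upstream, were named after their values were seen. Motifs were searched on both strands: AATCCACA (FOXH1), ATTTGCAT (octamer), TAATCC (OTX) and a CTCF consensus of 14 letters. The members and lists were chosen with earlier results of these data known. Replicate numbers were not used to pair the libraries in the main tests. The statistics were tested on simulated data. Python 3.11.15, numpy 2.4.6, pandas 2.3.3, scipy 1.17.1 and matplotlib 3.10.9 were used. Alternatives were the deposited list length, lists of 50% of the length, a peak covering at least 50% of a window, starts within 500 bp, each library left out, the replicate number as a block and, added after seeing the data, lists of 59786 peaks for the Chd loci.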

Additional observations from a re-analysis of the deposited data

How the results depend on the processing

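Under the alternatives 517 values kept their direction and stayed within the spread or within 1.5 times the count, 125 moved and 24 turned, and the cause was not tested. With lists of 50% of the length, windows lost with IAA were 4 in serum-free medium and 3 in serum, and 1 was gained in serum. In the same lists 2 were gained in the wild-type line, 2 lost and 2 gained in the mutated line, 7 lost with the Chd4 hairpins, 1 lost and 1 gained with the Chd8 hairpins, and 2 gained in serum against serum-free medium. With peaks that cover at least 50% of the window, 3 were lost with IAA in serum-free medium, 8 lost and 1 gained in the wild-type line, 7 lost and 0 gained with the Chd4 hairpins, and 2 gained in serum. At the deposited length 10 were gained with IAA in serum, 1 lost in the mutated line, 1 lost with the Chd8 hairpins and 3 gained in serum against serum-free medium.

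The difference in called windows turned with lists of 50% of the length to -0.50 at Fgf5 with IAA, 0.75 at Otx2 with the Chd4 hairpins, and 1.5 at Lefty1, 2.25 at Lefty2 and -0.25 at Tdgf1 in serum. It turned with the stricter overlap to 1.00 at Nodal and Lefty2 with IAA, -0.50 at Fgf5 with the Chd4 hairpins, and -0.25 at Fgf5 and Nodal with the Chd8 hairpins. At the deposited length it turned to -1.75 at Pou3f1 and -4.50 at Tdgf1 in serum. In lists of 59786 peaks, an alternative chosen after seeing the data, it turned to -0.25 at Otx2 and -0.50 at Nodal and Tdgf1 with the Chd8 hairpins.

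The members called at a start were, with lists of 50% of the length, 3 in the control line without and with IAA, 1 in the wild-type and 2 in the mutated line, 1 with Chd4 shluci, 3 with Chd8 shluci, 2 with Chd8 shRNA2, and 5 and 4 in serum without and with IAA. At the deposited length they were 9 in the wild-type line, 8, 5 and 5 in the Chd4 set, and 8 with either Chd8 hairpin. Within 500 bp they were 3 with Chd4 shluci, 1 with Chd4 shRNA1, and 1 and 3 with the Chd8 hairpins.

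Leaving out 1 library at a time, which loosens the demand on the groups, gave 15 to 17 lost and 7 to 15 gained with IAA in serum-free medium, 11 to 14 and 8 to 18 in serum, 7 to 15 and 6 to 8 in the wild-type line, 8 to 11 and 7 to 9 in the mutated line, 11 to 27 and 2 to 4 with the Chd4 hairpins, and 1 to 9 and 0 to 4 with the Chd8 hairpins. The difference ranged from -1.0 to 0.50 at Lefty2 and -0.50 to 2.00 at Smad7 with IAA, from -0.83 to 0.25 at Otx2 and -0.25 to 0.75 at Sox3 with the Chd4 hairpins, and from -1.5 to 3.5 at Otx2 and Pou3f1 with the Chd8 hairpins. At Lefty1 it ranged from -7.0 to -3.0 with the Chd8 hairpins. Members at a start ranged from 5 to 9 in the wild-type line and 4 to 5 with Chd8 shRNA1.

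With the replicate number as a block the differences were the same and no call changed. The exact permutation p was 0.125 for -4.00 at Lefty1 with IAA, 0.111 for -8.75 at Lefty2 and -8.00 at Smad7 with the Chd4 hairpins, and 0.125 for -7.25 at Nodal in serum. Differences between replicates 1 and 2 correlated across windows by -0.131 to 0.128 between groups, which does not settle whether the numbers pair the libraries. In the Chd4 set the first libraries had the longer deposited lists, with 135583, 140936 and 141742 peaks for shluci, shRNA1 and shRNA2. The second libraries had 93091, 91397 and 80619. Depth is unknown, and a weak site can be missed in a short list.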
